A study of Mus musculus with 8 samples.

Results

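The phosphoinositide 3-kinase (PI3K) subunits and phosphoinositide brakes described here are 8 of the 23284 genes in the deposited tables. They were chosen by gene symbol, with earlier results of these data known. The 4 activators were *Pik3cd*, *Pik3cg*, *Pik3r1* and *Pik3r5*, and the 4 brakes were *Pik3ip1*, *Inpp5d*, *Inpp4b* and *Phlpp1*. All 8 were in every library, and all 8 passed the filter on low values.

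Class I PI3K is a pair of a catalytic and a regulatory subunit that adds a phosphate to a membrane lipid and makes PIP3, which recruits kinases such as AKT after T cell receptor, costimulatory, cytokine or chemokine receptor signals. Class IA enzymes (p110δ with p85 regulatory subunits) act mainly below receptors linked to tyrosine kinases, and the class IB enzyme (p110γ with p101 or p84) acts mainly below G protein-coupled receptors. The signal is limited by lipid phosphatases that remove phosphates from PIP3 or its products, by phosphatases that act on AKT, and by a membrane protein that binds the catalytic subunit.

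RNA sequencing compared naive CD4 T cells with effector Th1, Th2 and Th17 cells, in 4 groups of 2 libraries each, in a search for surface molecules of effector cells. All cells came from the spleens of DO11.10 Tg mice, in which CD4 T cells carry a transgenic TCR specific for an OVA peptide. The naive cells were sorted as CD44low CD62Lhi and were not cultured, and the effector cells were grown from such cells for 6 days with OVA peptide on splenocytes that had been irradiated and depleted of T cells. The age of the animals is not given in the labels. Both Th1 and Th2 cultures contained 30 U/ml of IL-2. For Th1, 100 U/ml of IL-12 and 1 μg/ml of an antibody against IL-4 were added, and for Th2, 100 U/ml of IL-4 and 10 μg/ml of an antibody against IFNγ. For Th17, the cytokines were IL-6, IL-23 and IL-1β (10 ng/ml each), with 10 μg/ml of each of the antibodies, and no IL-2 is listed. Every comparison with naive cells is therefore a comparison of 6 days of stimulation in culture with none, and the cytokines cannot be told apart from the culture there. The labels do not say whether the libraries of a group came from separate mice or cultures, so the p-values measure only the spread between these libraries, which may be technical.

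Values are FPKM, fragment numbers corrected for exon length and sequencing depth, so that levels can be set side by side between genes. The confidence intervals in the files implied 14094284 to 21051348 fragments per library, fewest in the naive libraries, if the intervals hold counting error only. The 6 CD4 T cell markers summed to 1198 to 2108 FPKM in every library, and *Ifng* and *Tbx21*, the *Il4*, *Il13* and *Gata3* set, and *Il17a* and *Il17f* were each highest in the subset they mark. The summed level of *Cd8a* and *Cd8b1* was 93.4 and 54.5 FPKM in the naive libraries against 8.94 to 13.0 FPKM in the 6 effector libraries. Nearly all of it was *Cd8b1*, at 90.5 and 52.8 FPKM in the naive libraries, where *Cd8a* had 2.94 and 1.77 FPKM. Myeloid markers (5 of 6 in the files) summed to 13.2 to 31.3 FPKM and B cell markers (6 of 6) to 2.49 to 13.9 FPKM. Naive markers summed to 1526 and 1576 FPKM in naive cells and 119.4 to 430.7 FPKM in effector cells, dendritic markers to 0.728 to 3.90 FPKM with up to 2 of 5 at 0, NK markers to at most 0.625 FPKM, and the 3 erythroid and platelet markers in the files to 0.444 to 9.37 FPKM. The part of such cells in the results was not tested, and in bulk RNA fewer cells of a type and less RNA per cell cannot be told apart.

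In the class IB pair, *Pik3r5* had the largest fitted difference of any member and *Pik3cg* was the only member higher in all 3 subsets, so the DNA before their start sites is shown first. The sequences are RefSeq promoter windows of GRCm38.p6, cut so that they end before the first exon in the GENCODE annotation. In RefSeq the *Pik3cg* gene reaches position 32208677, so the last bases of its window lie inside that gene. The capitals mark matches on either strand to GGAAA (the NFAT core) or GGGCGG (the GC box).
*Pik3cg*, chr12:32208660-32208909, minus strand: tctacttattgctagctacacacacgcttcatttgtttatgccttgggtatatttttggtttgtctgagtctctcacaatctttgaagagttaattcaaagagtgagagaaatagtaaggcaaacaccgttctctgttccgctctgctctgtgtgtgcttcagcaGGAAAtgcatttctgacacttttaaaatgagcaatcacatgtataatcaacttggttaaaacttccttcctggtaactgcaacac
*Pik3r5*, chr11:68431875-68432120, plus strand: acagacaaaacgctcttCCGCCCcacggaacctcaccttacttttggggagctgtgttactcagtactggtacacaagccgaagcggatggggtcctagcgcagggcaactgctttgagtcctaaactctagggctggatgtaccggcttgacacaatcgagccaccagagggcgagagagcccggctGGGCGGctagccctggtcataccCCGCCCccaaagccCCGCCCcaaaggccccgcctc

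The windows before the start sites of these partner genes differed in base composition. The *Pik3cg* window shown held 38.8% G and C, at percentile 9.7 of all windows, and the window at its other annotated start site 44.0%, at percentile 21.1, whereas the whole 250-base *Pik3r5* window held 61.6%, at percentile 75.7. The *Pik3r5* window had 4 GC boxes and no GGAAA, and the *Pik3cg* window had 1 GGAAA and no GC box. Over 32851 windows of the same length, 55.6% held GGAAA and 32.7% held GGGCGG. Of the 12 windows of the 8 members, 5 held GGAAA, 5 held GGGCGG, 8 held CACCC (52.0% of all windows), and 1, at the other annotated start site of *Pik3cg*, held GTAAACA, the FOXO core (3.17% of all windows). These motifs were picked after the expression values had been seen, other letter patterns were looked at too, and a match is a description of the letters only.

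The members moved in both directions between naive and effector cells. *Pik3cg* was higher than in naive cells in all 3 effector subsets. *Pik3r5*, *Pik3r1*, *Pik3cd* and the brake *Pik3ip1* were lower in all 3. *Phlpp1* was lower in Th2 and Th17, *Inpp4b* was called lower in Th17 only, and *Inpp5d* passed the test in none. The test was limma on log2(FPKM + 1), fitted to 11198 genes with a mean of at least 1 FPKM, and a difference was called at an adjusted p under 0.05. Fitted differences are on that log2 scale, which understates changes of genes with low FPKM.

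**Figure D1:**
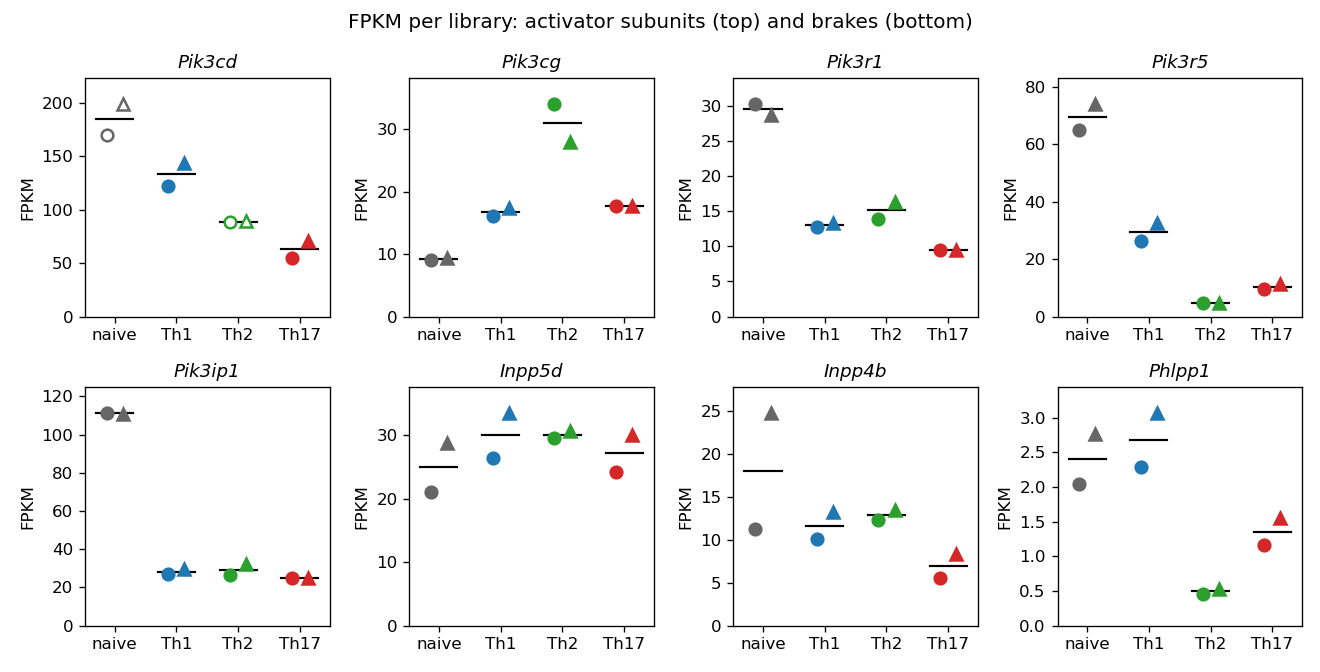
FPKM of the 8 members (vertical axes, each from 0) in naive, Th1, Th2 and Th17 cells. Circles are replicate 1, triangles replicate 2, bars the mean of 2 libraries, and open symbols values whose interval estimate failed; *Pik3r5* runs from 74.1 FPKM in a naive library to 4.70 FPKM in a Th2 library, and *Pik3cg* from 9.11 to 34.1 FPKM.

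*Pik3cg* (chr12:32173397-32208649) encodes p110γ, the class IB catalytic subunit. Naive libraries had 9.11 and 9.31 FPKM, Th1 libraries 16.2 and 17.4, Th2 libraries 34.1 and 28, and Th17 libraries 17.7 and 17.8. Each of the 6 effector libraries exceeded both naive ones, and both Th2 libraries lay above all others. The mean of 31.0 ± 4.27 FPKM (SD, n = 2) in Th2 was 3.37 times the naive mean of 9.21 ± 0.142. The difference from naive cells was 0.80 for Th1, 1.64 for Th2 and 0.88 for Th17 (SE 0.11 each, limma adjusted p = 0.000574, 1.40e-05 and 0.000349). Th2 also differed from Th1 (Th1 minus Th2 −0.84, adjusted p = 0.0011) and from Th17 (Th17 minus Th2 −0.77, adjusted p = 0.00202). Th1 and Th17 stood next to each other at −0.08, with a 95% interval of −0.34 to 0.18 (adjusted p = 0.679).

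*Pik3r5* (chr11:68432125-68497846) encodes p101, a regulatory partner of p110γ. Naive cells had 65.1 and 74.1 FPKM, Th1 cells 26.4 and 32.7, Th2 cells 4.71 and 4.70, and Th17 cells 9.51 and 11.2. No pair of groups overlapped, and the order naive, Th1, Th17, Th2 was the reverse of that of *Pik3cg* at both ends. The naive mean of 69.6 ± 6.38 FPKM was 14.8 times the Th2 mean of 4.71 ± 0.00744, 6.71 times the Th17 mean and 2.36 times the Th1 mean.

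The fitted differences of *Pik3r5* from naive cells were −1.21 for Th1, −3.63 for Th2 and −2.64 for Th17 (SE 0.14 each, limma adjusted p = 0.000211, 9.30e-07 and 4.26e-06). Of all genes tested, 1.01% had a lower difference in Th2 against naive cells. The subsets differed from each other as well, by 2.41 between Th1 and Th2 (adjusted p = 2.68e-05), 1.42 between Th1 and Th17 (adjusted p = 0.00046) and 0.99 between Th17 and Th2 (adjusted p = 0.00173). In each of the 6 comparisons *Pik3r5* passed under all 14 alternatives run.

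Within a library, the ratio of *Pik3r5* to *Pik3cg* FPKM was 7.15 and 7.96 for the naive libraries, 1.63 and 1.88 for those of Th1, 0.138 and 0.168 for those of Th2, and 0.537 and 0.632 for those of Th17. Naive libraries thus had more *Pik3r5* than *Pik3cg* per length, and the Th2 and Th17 libraries had less. *Pik3r6*, which encodes p84, the other partner of p110γ, had 0.0144 and 0.0290 FPKM in the naive libraries, 0.814 and 0.834 FPKM under Th1, 0.249 and 0.275 FPKM under Th2, and 2.95 and 3.03 FPKM under Th17 conditions. Its mean over the 8 libraries was 1.02 FPKM, and 0.369 FPKM without Th17, so it passed the filter on low values only through the group where it was high, and no test of it is given. With both partners summed, the ratio to *Pik3cg* was 7.56 ± 0.578 for naive cells, 1.80 ± 0.173 for Th1, 0.162 ± 0.0226 for Th2 and 0.753 ± 0.0708 for Th17 (SD, n = 2).

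**Figure D2:**
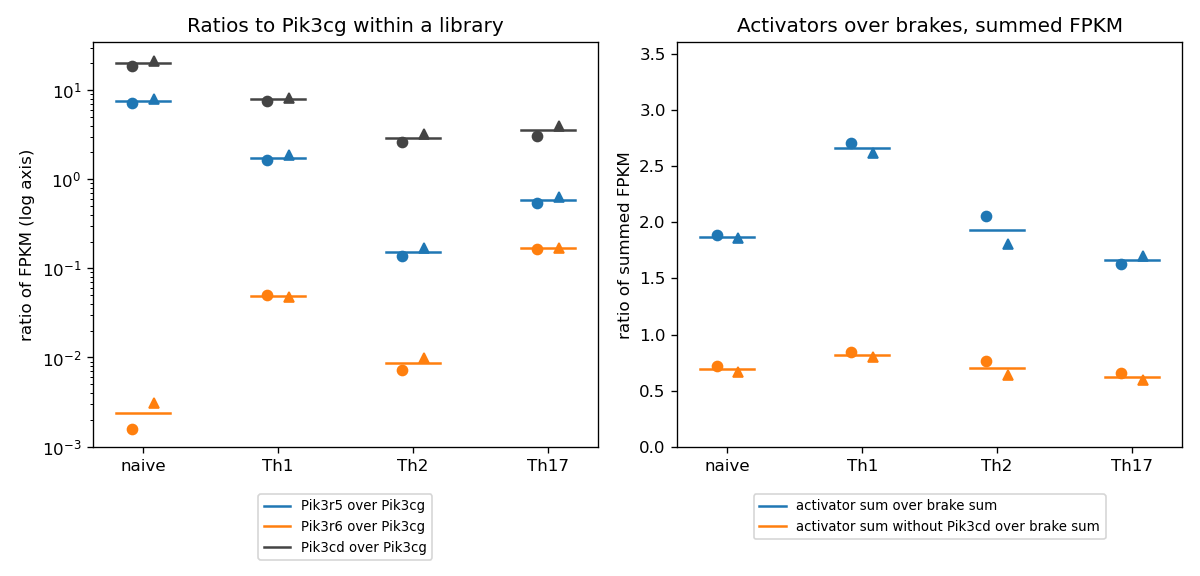
Left, FPKM of *Pik3r5*, *Pik3r6* and *Pik3cd* divided by that of *Pik3cg* in the same library (log axis). Right, the summed FPKM of the activators divided by that of the brakes, with and without *Pik3cd*; circles are replicate 1, triangles replicate 2 and bars the mean of 2 libraries. The *Pik3r5* ratio falls from 7.56 in naive to 0.153 in Th2 cells, and the Th1 libraries stand highest on the right at 2.71 and 2.62.

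*Pik3cd* (chr4:149649168-149701629) encodes p110δ, the leukocyte-enriched class IA catalytic subunit, and had the highest FPKM of the 8 members in every group. Naive cells had 170.2 and 199.1 FPKM, Th1 cells 122.2 and 144.0, Th2 cells 88.3 and 89.5, and Th17 cells 54.8 and 71.1. No pair of groups overlapped. The 4 naive and Th2 values carried the status FAIL, with intervals from 0 up to 193.4 and 225.3 FPKM in naive cells and up to 106.8 and 107.6 in Th2, whereas all Th1 and Th17 values had the status OK. The failed status therefore falls together with the group, its part in the differences cannot be told apart, and only the comparison of Th1 with Th17 has OK values on both sides.

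In that comparison *Pik3cd* was higher in Th1 by 1.07 (SE 0.16, limma adjusted p = 0.00306), and it passed under all 13 alternatives that kept the gene. Against naive cells the differences were −0.47 in Th1 (SE 0.16 for each, adjusted p = 0.0328), −1.04 in Th2 (adjusted p = 0.000844) and −1.54 in Th17 (adjusted p = 0.000124). Th1 was above Th2 by 0.57 (adjusted p = 0.0243) and Th17 below Th2 by 0.50 on the log2 scale (adjusted p = 0.0389). The first of these did not pass without naive replicate 2 (−0.36, adjusted p = 0.15), without Th1 replicate 1 (−0.35, adjusted p = 0.167) or with no filter on low values (adjusted p = 0.0918), and with quantile normalization it was −0.85. The differences from Th2 were lost without either Th2 replicate (adjusted p = 0.0867 to 0.141), without Th1 replicate 2 (0.46, adjusted p = 0.135), without Th17 replicate 1 (−0.32, adjusted p = 0.178), with no filter (adjusted p = 0.0747 and 0.102), for Th1 with quantile normalization (0.35, adjusted p = 0.0983) and for Th17 in a fit of Th2 and Th17 alone (adjusted p = 0.0552).

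The catalytic subunits *Pik3cd* and *Pik3cg* changed in opposite directions from naive cells, with the status FAIL for *Pik3cd* in the naive and Th2 libraries. The ratio of *Pik3cd* to *Pik3cg* FPKM was 18.7 and 21.4 for the naive libraries, 7.56 and 8.27 for those of Th1, 2.59 and 3.19 for those of Th2, and 3.09 and 4.0 for those of Th17. Naive libraries lay above all others, Th1 libraries came next, and Th2 and Th17 overlapped. *Pik3ca*, the broadly expressed p110α, lay between 10.5 and 13.1 FPKM in all 8 libraries and was higher than in naive cells in Th1 (0.26, limma adjusted p = 0.0189) and Th17 (0.29, adjusted p = 0.012), with 0.16 in Th2 (adjusted p = 0.0989). *Pik3cb*, p110β, had a mean of 2.57 FPKM in naive cells and 1.15 to 1.46 FPKM in the effector groups, and was lower in all 3 (−0.54, −0.73 and −0.61 in Th1, Th2 and Th17, adjusted p = 0.00342, 0.000691 and 0.00184).

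*Pik3r1* (chr13:101680762-101768217) encodes p85α and its shorter forms, the regulatory subunits that stabilise and restrain the class IA catalytic subunits. Naive cells had 30.2 and 28.7 FPKM, Th1 cells 12.7 and 13.2, Th2 cells 13.9 and 16.2, and Th17 cells 9.49 and 9.41. Naive cells were above all effector libraries and Th17 below all others, and no pair of groups overlapped. The differences from naive cells were −1.12 for Th1, −0.93 for Th2 and −1.54 for Th17 (SE 0.10 each, limma adjusted p = 6.10e-05, 0.000135 and 1.11e-05).

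Among the subsets, *Pik3r1* in Th17 was below Th2 by 0.62 on the log2 scale (limma adjusted p = 0.00299) and below Th1 (Th1 minus Th17 0.42, adjusted p = 0.0208). The latter was not called when any of the 4 libraries was left out (0.39 to 0.45, adjusted p = 0.0827 to 0.112). Th1 and Th2 were neighbours at −0.20, with a 95% interval of −0.43 to 0.03 (adjusted p = 0.143, and 0.0498 with quantile normalization). The files give 2 start sites for *Pik3r1*, and the rows used here do not separate its long and short forms. The ratio of *Pik3r1* to *Pik3cd* FPKM was lowest in Th1, at 0.104 and 0.0919, against 0.132 to 0.181 in the other 6 libraries. Of these, the naive and Th2 libraries have *Pik3cd* values with the status FAIL.

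**Figure D3:**
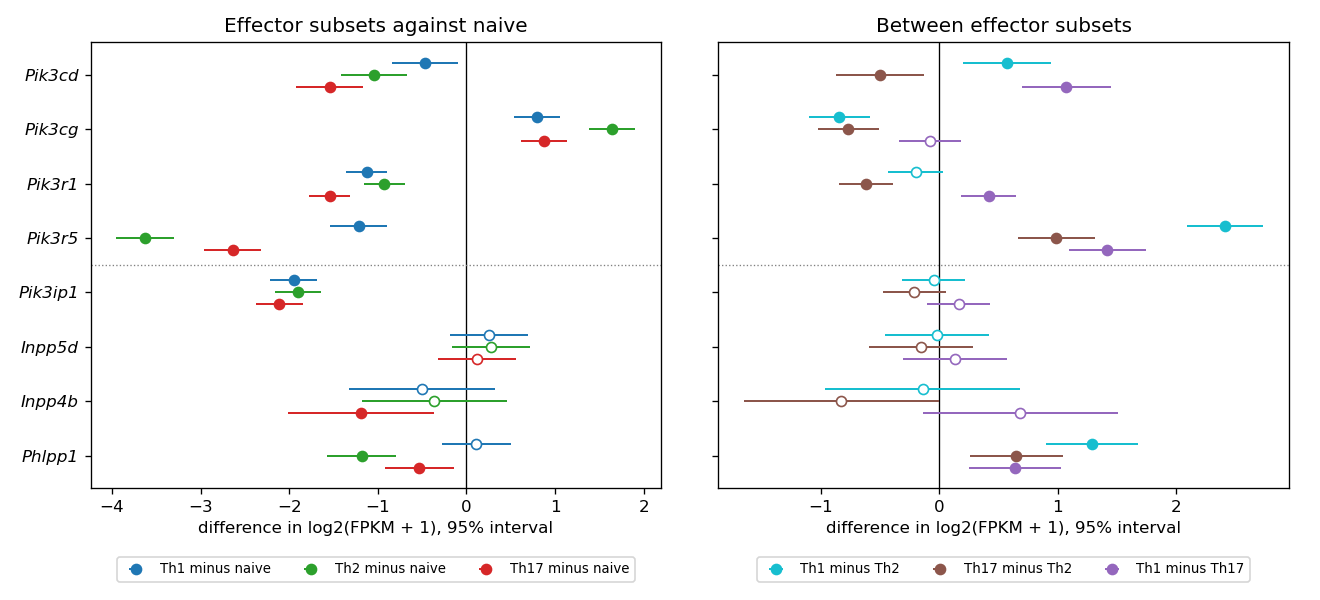
Fitted differences in log2(FPKM + 1) with 95% intervals for the 8 members, effector subsets against naive cells on the left and between subsets on the right. Filled symbols passed at an adjusted p under 0.05 and open symbols did not; *Pik3cg* is the only member right of 0 with filled symbols on the left, and *Pik3ip1*, *Inpp5d* and *Inpp4b* have open symbols only on the right.

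Among the brakes, *Pik3ip1* was lower than in naive cells in Th1, Th2 and Th17. *Pik3ip1* (chr11:3330731-3342971) encodes a membrane protein that binds p110 and lowers its activity. Naive cells had 111.4 and 111.0 FPKM, Th1 cells 26.9 and 29.4, Th2 cells 26.4 and 32.0, and Th17 cells 25.1 and 24.8. All effector libraries lay far below both naive libraries, and Th1 and Th2 overlapped. The naive mean of 111.2 ± 0.253 FPKM was 3.95, 3.81 and 4.45 times the means of Th1, Th2 and Th17.

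The differences of *Pik3ip1* from naive cells were −1.95 for Th1, −1.90 for Th2 and −2.11 for Th17 (SE 0.11 each, limma adjusted p = 8.05e-06, 7.59e-06 and 4.79e-06), and each passed under all 14 alternatives. Between the subsets it was not called, at −0.05 for Th1 minus Th2 (95% interval −0.31 to 0.22), −0.21 for Th17 minus Th2 (−0.48 to 0.05) and 0.16 for Th1 minus Th17 (−0.10 to 0.43), with adjusted p = 0.765, 0.167 and 0.343. Th17 minus Th2 did pass with median scaling (−0.39, adjusted p = 0.0305), with quantile normalization (−0.38, adjusted p = 0.0289) and without Th2 replicate 1 (−0.35, adjusted p = 0.0495). *Pik3ip1* made up 71.4% ± 7.11 of the summed FPKM of the 4 brakes in naive cells and 39.1% to 41.6% in the effector groups. A long noncoding RNA, Gm12592, overlaps the gene on the opposite strand in RefSeq, and the labels and the methods name library kits that differ in whether strand is kept, so shared reads cannot be told apart. *Pik3ip1* as listed starts inside the RefSeq gene, whose first start is at position 3319241.

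*Inpp5d* (chr1:87620312-87720508) encodes SHIP1, a blood cell phosphatase that removes a phosphate from PIP3. Naive cells had 21.1 and 28.8 FPKM, Th1 cells 26.4 and 33.5, Th2 cells 29.5 and 30.6, and Th17 cells 24.2 and 30.0. The groups overlapped in every comparison except Th2 against naive, where both Th2 libraries lay just above the naive ones. The difference there was 0.28, with a 95% interval of −0.16 to 0.72 (limma adjusted p = 0.22), and with the replicate number as a block it passed (adjusted p = 0.048). The other 5 differences lay between −0.15 and 0.26 (adjusted p = 0.249 to 0.957), and the 95% intervals of the 6 differences together spanned −0.59 to 0.72. *Inpp5d* made up 15.8% ± 1.94 (SD, n = 2) of the brake sum in naive cells and 41.2% to 44.8% in the effector groups, where *Pik3ip1* was lower. A long noncoding RNA, Gm33470, overlaps *Inpp5d* in RefSeq.

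*Inpp4b* (chr8:81715200-82122561) encodes a phosphatase that acts on the lipid SHIP1 makes. Naive cells had 11.3 and 24.7 FPKM, Th1 cells 10.0 and 13.3, Th2 cells 12.3 and 13.4, and Th17 cells 5.55 and 8.27. The naive libraries were more than 1 log2 unit apart (1.07), and both Th17 libraries lay below all others. Of the 6 comparisons, Th17 minus naive was called, at −1.19 (SE 0.35, limma adjusted p = 0.0189). It was not called without naive replicate 2 (−0.65, adjusted p = 0.0662), without Th17 replicate 1 (−0.94, adjusted p = 0.112), with no filter (adjusted p = 0.0845) or in a fit of those groups alone (adjusted p = 0.0618).

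For Th1 and Th2 the *Inpp4b* differences from naive cells were −0.50 and −0.36 (adjusted p = 0.234 and 0.377), and naive replicate 2 decided their sign. Without it they were 0.03 and 0.17 (adjusted p = 0.925 and 0.572), and without naive replicate 1 they were −1.04 and −0.90 (adjusted p = 0.0138 and 0.0219). Th17 minus Th2 was −0.83 (adjusted p = 0.0944), and it passed with the replicate number as a block (adjusted p = 0.0195) and in a fit of those groups alone (adjusted p = 0.0296). Th1 minus Th17 was 0.69 (95% interval −0.14 to 1.51). The gene as listed in the files starts inside the RefSeq gene, whose first start is at position 81342266, and 2 annotated pseudogenes overlap it.

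*Phlpp1* (chr1:106171869-106394245) encodes a phosphatase that dephosphorylates AKT and had the lowest FPKM of the members in every group. Naive cells had 2.05 and 2.76 FPKM, Th1 cells 2.29 and 3.07, Th2 cells 0.460 and 0.523, and Th17 cells 1.16 and 1.55. Th1 overlapped naive cells, both Th17 libraries lay below those 4, and both Th2 libraries lay below all others. The naive mean of 2.40 ± 0.503 FPKM was 4.89 times the Th2 mean and 1.78 times the Th17 mean. The intervals imply 83 and 93 fragments of *Phlpp1* in the Th2 libraries.

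The differences of *Phlpp1* from naive cells were 0.11 in Th1 (95% interval −0.28 to 0.50, limma adjusted p = 0.573), −1.18 in Th2 (SE 0.16, adjusted p = 0.000555) and −0.53 in Th17 (adjusted p = 0.0244). Th1 was above Th2 by 1.29 (adjusted p = 0.001), Th17 above Th2 by 0.65 (adjusted p = 0.0181) and Th1 above Th17 by 0.64 (adjusted p = 0.0298). With a pseudocount of 0.1 in place of 1 the Th2 difference from naive cells was −2.07, that from Th1 2.22 and that from Th17 1.29. The 3 calls that involve Th17 were lost under several alternatives. Th17 minus naive was lost without naive replicate 2 (−0.38, adjusted p = 0.114), without Th17 replicate 1 (−0.41, adjusted p = 0.116) and with no filter (adjusted p = 0.07), and was −1.16 with quantile normalization. Th17 minus Th2 was lost without either Th2 replicate or Th17 replicate 2 (0.53 to 0.68, adjusted p = 0.0664 to 0.0965), with no filter (adjusted p = 0.0587) and with quantile normalization (0.31, adjusted p = 0.154). Th1 minus Th17 was lost without Th1 replicate 2 or either Th17 replicate (0.49 to 0.76, adjusted p = 0.055 to 0.145), with no filter (adjusted p = 0.0828) and in a fit of those groups alone (adjusted p = 0.0545).

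Counted over the 8 members, 1 was higher and 4 were lower in Th1 than in naive cells, where 33.8% of all tested genes were higher and 33.5% lower. In Th2, 1 was higher and 5 were lower (all genes 31.8% and 38.7%), with *Inpp5d* as a further higher member under the replicate block, and in Th17, 1 was higher and 6 were lower (37.5% and 29.8%). In all 3 subsets, 1 of 8 was higher and 4 of 8 lower, against 24.8% and 23.8% of all tested genes. Those 4 include *Pik3cd*, with the status FAIL in the naive and Th2 libraries. Its call in Th1 was lost without naive replicate 2, without Th1 replicate 1 and with no filter on low values. Most tested genes were called in each of these comparisons, so a call alone does not set a member apart. The median difference of the 8 members from naive cells was −0.49 for Th1, −0.98 for Th2 and −1.37 for Th17, whereas the medians over all tested genes were −0.01, −0.11 and 0.08.

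Of the 4 activators, 3 were lower and 1 was higher in each subset. Of all tested genes, 33.5%, 38.7% and 29.8% were lower in Th1, Th2 and Th17, and 33.8%, 31.8% and 37.5% higher. The 3 lower activators include *Pik3cd*, with the status FAIL in the naive and Th2 libraries. Of the 4 brakes, 1 was lower in Th1, 2 in Th2 and 3 in Th17, beside 33.5%, 38.7% and 29.8% of all tested genes, and 1 was lower in all 3 subsets, beside 23.8%. No brake was higher, beside 33.8%, 31.8% and 37.5% of all tested genes, except *Inpp5d* in Th2 under the replicate block. These comparisons share the same naive libraries.

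Between the subsets, 3 members were higher and 1 was lower in Th1 than in Th2 (27.4% and 16.9% of all tested genes). In Th17 against Th2, 2 were higher and 3 lower (31.7% and 12%), or 2 and 4 with the replicate block. In Th1 against Th17, 4 were higher and 0 lower (9.17% and 16%): *Pik3cd*, *Pik3r1*, *Pik3r5* and *Phlpp1*. The all-gene medians of these 3 comparisons were 0.11, 0.18 and −0.08. Rescaling the libraries moved the split of all genes, to 21.6% higher and 20.9% lower in Th1 against Th2 with quantile normalization. Median scaling made it 20.6% and 18% in Th17 against Th2 and 11.9% and 12.8% in Th1 against Th17, and quantile normalization 20.1% and 19.6%, and 12.4% and 12.5%. In Th17 against naive cells it was 30.4% and 38.4% with quantile normalization. The members higher and lower were 2 and 2 for Th1 against Th2, and 1 and 4 for Th17 against Th2, with quantile normalization, and 2 and 4 for the latter with median scaling.

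The summed FPKM of the activators divided by that of the brakes was 1.88 and 1.86 for the naive libraries, 2.71 and 2.62 for those of Th1, 2.05 and 1.81 for those of Th2, and 1.63 and 1.70 for those of Th17. Both Th1 libraries lay above all others. *Pik3cd*, with the status FAIL in the naive and Th2 libraries, supplied 62.4% to 69.1% of the activator sum. The brake sum was 156.5 ± 15.2 FPKM in naive cells against 72.4 ± 9.60 in Th1. Without *Pik3cd* the means were 0.693 ± 0.0327 for naive cells, 0.822 ± 0.0298 for Th1, 0.704 ± 0.0906 for Th2 and 0.625 ± 0.0424 for Th17 (SD, n = 2), and the Th1 libraries were still above the rest. With geometric means of FPKM + 1, the ratio was 2.22 in naive cells (2.49 and 1.94), 2.23 in Th1 (2.32 and 2.14), 1.92 in Th2 and 1.81 in Th17, so the naive libraries lay on either side of those of Th1. With geometric means of FPKM itself, a form added after seeing the data, Th2 had the highest mean, at 2.44, next to 2.40 in naive cells, 2.41 in Th1 and 2.06 in Th17, and the Th2 and Th1 libraries overlapped. Transcript sums say nothing of enzyme activity, and no test was made of them.

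The replicates of a group also differed in a way that several members shared. *Inpp4b*, *Inpp5d*, *Phlpp1* and *Pik3cd* were higher in replicate 2 than in replicate 1 in all 4 groups, which holds for 20.2% of all tested genes. For *Inpp5d* the steps were 0.43, 0.33, 0.05 and 0.30 in naive, Th1, Th2 and Th17. In Th2 the step of all 4 genes was smallest, between 0.02 and 0.12. The medians over all tested genes were 0.00, 0.05, −0.01 and 0.06, and what set the replicates apart was not tested.

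**Figure D4:**
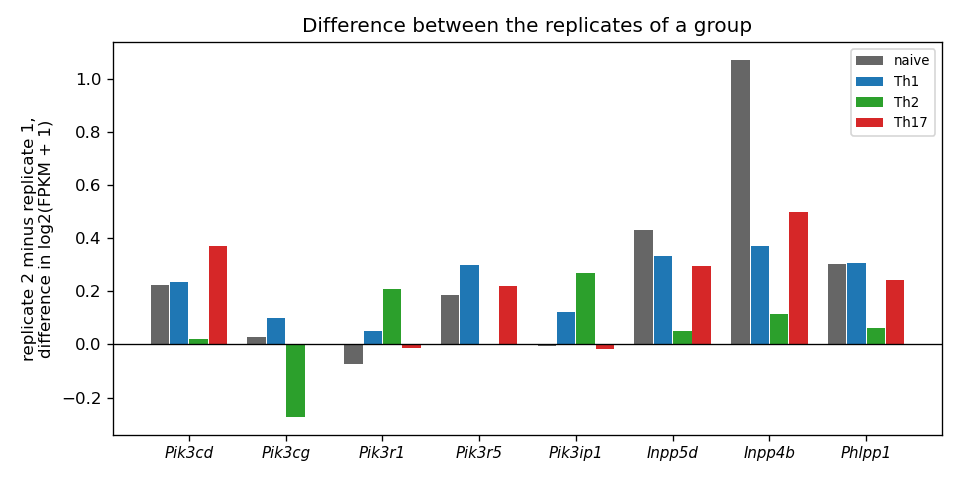
Replicate 2 minus replicate 1 in log2(FPKM + 1) for each member (bars from 0, coloured by group). The bars of *Pik3cd*, *Inpp5d*, *Inpp4b* and *Phlpp1* are above 0 in all 4 groups, and the tallest, 1.07, is *Inpp4b* in naive cells.

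The other genes of the pathway were counted in 6 lists by their roles. Of all tested genes, 24.8% were higher and 23.8% lower than in naive cells in all 3 subsets. Of 8 tested genes for other class I subunits and adaptors, 4 were higher and 2 lower than in naive cells in all 3 subsets. Both the 8 and the 4 include *Pik3r6*, which passed the filter on low values only through Th17. The count is therefore no result for that gene. *Icos*, a costimulatory receptor that binds PI3K, had a mean of 5.13 FPKM in naive cells and 228.9 to 341.2 FPKM in the effector groups (differences of at least 5.23). *Pik3ap1*, an adaptor known as BCAP, had 0.481 FPKM in naive cells and 10.2 to 20.3 FPKM in effector groups. *Trat1*, a TCR-associated adaptor that binds p85, was at 62.5 FPKM in naive cells, 30.5 in Th1, 9.03 in Th17 and 5.5 in Th2, the same order of groups as *Pik3r5*. None of the 4 tested class II and III genes passed in all 3 subsets.

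Of 18 tested other phosphatases, 2 were higher and 6 lower in all 3 subsets, beside 24.8% and 23.8% of all tested genes. *Inpp5f*, a phosphoinositide phosphatase, was at 14.5 FPKM in naive cells and 2.86 to 4.73 FPKM in effector groups. *Inppl1*, which encodes SHIP2, the relative of SHIP1, was higher, at 5.93 FPKM in naive cells and 18.6 to 25.5 FPKM in effector groups, and *Mtmr3*, of the myotubularin family, was higher by 1.14, 0.58 and 0.93 in Th1, Th2 and Th17.

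Below PIP3, 2 of 15 tested genes of the AKT and mTOR axis were higher and 6 lower in all 3 subsets. Over all tested genes the shares were 24.8% and 23.8%. *Akt1* had a mean of 46.1 FPKM in naive cells against 83.5 (Th1), 61.6 (Th2) and 89.2 (Th17) in effector cells (differences 0.84, 0.41 and 0.93), and *Eif4ebp1*, a brake on translation that mTOR phosphorylates, was higher by 3.5, 4.12 and 4.0. *Tsc1*, an inhibitor of mTOR signaling, was lower (−1.05, −1.23 and −0.83), as was *Sgk1*, a kinase related to AKT (−0.81, −1.16 and −2.00). Of 19 tested genes for PIP3 binding proteins, 4 were higher and 9 lower in all 3, beside those shares of all genes. Among them the adaptor *Gab2* was higher by 1.42, 2.03 and 1.75, the exchange factor *Vav2* by 1.00, 0.71 and 1.83, and *Plekha1*, which binds a product of PIP3, was lower (−3.02, −2.86 and −2.08). *Txk*, a Tec family kinase, went from 79.7 FPKM in naive cells to 16.6 in Th1, 7.83 in Th17 and 1.01 in Th2. Both *Txk* and *Gab2* carried the status FAIL in 1 library.

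Of 14 FOXO factors and known FOXO or KLF2 targets, 0 were higher and 7 lower in all 3 subsets. *Foxo1*, a transcription factor that AKT keeps out of the nucleus, had a mean of 69.7 FPKM in naive cells against 21.5 (Th1), 42.4 (Th2) and 16.9 (Th17) in effector cells (differences −1.65, −0.70 and −1.98, limma adjusted p = 1.03e-05, 0.000608 and 3.74e-06). *Klf2*, a quiescence factor, was at 238.9 FPKM in naive cells and 8.38 to 14.1 FPKM in effector groups, and *Sesn1*, a FOXO target that restrains mTOR, was lower (−2.88, −3.52 and −3.38). The lists were chosen with results of these data known, and their counts are to be read against the 24.8% and 23.8% of all tested genes.

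For each member the genes whose log2(FPKM + 1) ran most alike over the 8 libraries are given as a description, since the 8 points are 4 groups of 2. They were *H2-Q9* and *Sgms1* for *Pik3cd* (Pearson's r = 0.984 and 0.983), *S100a1* and *Obfc1* for *Pik3cg* (0.994 and 0.992), *Rnf122* and *Zfp36* for *Pik3r1* (0.993 and 0.991), and *Stk24* and *Ifi204* for *Pik3r5* (0.997 and 0.995). For the brakes they were *Hs3st3b1* and *Mphosph9* for *Pik3ip1* (0.997 each), *Pold2* for *Inpp5d* (0.952), *N4bp1* and *Foxn3* for *Inpp4b* (0.973 and 0.961), and *Ms4a6d* and *Agap2* for *Phlpp1* (0.990 and 0.989). *S100a1* shared the group order of *Pik3cg* over a wider range, from 2.08 FPKM in naive cells to 124.9 FPKM in Th2. *Ifi204* ran with *Pik3r5* from 34.1 FPKM in naive cells to 0.341 FPKM in Th2.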

How the data were processed

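Gene expression in naive, Th1, Th2 and Th17 cells was measured by RNA sequencing, with 2 libraries in each of 4 groups taken from the sample labels. The authors aligned reads of 50 bases to mm10 with TopHat 1.3.2 and Bowtie 0.12.8 and used Cufflinks 2.0.2 for FPKM per gene, as the submitters' notes state. The deposited files give, per library, FPKM, the bounds of its confidence interval and an estimation status. The gene annotation is not given in the sources used here. The files hold no read counts, so depth is known only from the interval widths, if these cover counting error only. They may cover more, since *Pik3cg* in Th1 had 16.2 and 17.4 FPKM with 1553 and 2573 implied fragments. Implied fragment numbers are therefore not counts. The methods name an unstranded kit and the labels a stranded one.

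Rows that share a symbol were summed (23746 rows, 23284 genes). FPKM was tested as log2(FPKM + 1) for the 11198 genes with a mean of at least 1. One model with 4 group means was fitted to all 8 libraries with limma 3.58.1 under R 4.3.3 (moderated by eBayes, trend included), two-sided, with Benjamini-Hochberg adjustment over all genes tested and a threshold of 0.05. The script was tested on simulated data. The status was FAIL in at least 1 library for 102 tested genes.

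Same-numbered libraries deviated together (r of their replicate differences 0.138 to 0.294 over the 6 pairs of groups). An alternative fit therefore took the numbers in the labels as a block that pairs the libraries. The main fit leaves this pairing out, and so do the printed values unless the block is named. With the block, the SE was 0.213 in place of 0.345 for *Inpp4b* and 0.104 in place of 0.109 for *Pik3cg*. The blocked value is given where it changes a call. Alternatives were another pseudocount (0.1), other filters, median scaling, quantile normalization, fits of 2 groups, no trend, the replicate block, the largest row per symbol and each library left out. Added after seeing the data were genes with status OK throughout, the activator to brake ratio without *Pik3cd* and that ratio from geometric means without a pseudocount.

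Named from the pathway lists were genes set by name (*Akt1*, *Pik3ca*, *Pik3cb*, *Pik3r6*, *Foxo1*, *Klf2*) and, per list, up to 2 genes in each direction that passed in all 3 comparisons with naive cells, by the smallest of the 3 differences, and for each member the 2 genes most alike. A few genes that meet these rules are not reported here. The members and lists were chosen with earlier results of these data known. File coordinates count from 0 and were raised by 1, after which 11496 of 20476 starts equalled those of RefSeq. Promoter windows span 250 bases before a start site. Python 3.11.15 (pandas 2.3.3, numpy 2.4.6) handled the tables.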

Additional observations from a re-analysis of the deposited data

Results flagged for a closer look

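In 5 members the change from naive cells differed between effector subsets, tested as the difference between the subsets with limma. Because the naive libraries drop out of that difference, it is a comparison of 2 effector groups. Over all genes, 27.4% had a positive call and 16.9% a negative call for Th1 minus Th2. The shares were 31.7% and 12% for Th17 minus Th2, and 9.17% and 16% for Th1 minus Th17. The share with a call in at least 1 of these comparisons was not counted. The 5 members are therefore not shown to stand apart from other genes. The largest such difference of each member was 1.07 for *Pik3cd* (Th1 minus Th17), −0.84 for *Pik3cg* (Th1 minus Th2), −0.62 for *Pik3r1* (Th17 minus Th2), 2.41 for *Pik3r5* (Th1 minus Th2) and 1.29 for *Phlpp1* (Th1 minus Th2). Groups of 2 libraries are too small to test whether a single library stands apart, so the gap of 1.07 between the naive values of *Inpp4b* is given as a value only.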

How the results depend on the processing

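Of 666 alternative values for single members, 608 kept their direction and side of the threshold, 34 lost a call, 9 gained one and 15 changed sign. Every change of sign was in a difference that had not passed. The number of members called moved by over 1.5 times in 2 comparisons. In Th17 against Th2 it was 5, and 3 with no filter on low values, and leaving out a library gave as few as 3 (without Th2 replicate 2). In Th1 against Th17 it was 4, and leaving out a library gave as few as 2 (without Th1 replicate 2 or either Th17 replicate). With genes of status OK only, *Pik3cd* dropped out and no other member's call changed.

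The replicate block changed 2 calls, giving *Inpp5d* in Th2 against naive cells (0.28, adjusted p = 0.048) and *Inpp4b* in Th17 against Th2 (−0.83, adjusted p = 0.0195), and changed no other. Median scaling turned *Pik3cg* in Th1 minus Th17 to 0.008, and quantile normalization turned *Phlpp1* in Th1 minus naive to −0.20. Leaving out 1 library gave values of both signs for *Pik3ip1* (Th1 minus Th2, −0.18 to 0.088), *Inpp5d* (Th17 minus naive, −0.091 to 0.34, Th1 minus Th2, −0.18 to 0.15, Th1 minus Th17, −0.031 to 0.30), *Inpp4b* (Th1 minus naive, −1.04 to 0.033, Th2 minus naive, −0.90 to 0.17, Th1 minus Th2, −0.33 to 0.044) and *Phlpp1* (Th1 minus naive, −0.043 to 0.26).

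The activator to brake ratio depends on how it is formed. It was 1.68, 2.48, 1.72 and 1.51 in naive, Th1, Th2 and Th17 without *Pik3r1*, 0.693, 0.822, 0.704 and 0.625 without *Pik3cd*, 2.22, 2.23, 1.92 and 1.81 with geometric means of FPKM + 1, and 2.40, 2.41, 2.44 and 2.06 with geometric means of FPKM itself, where Th2 and not Th1 was highest. The cause of these changes was not tested, beyond the genes each form leaves out. With 2 libraries in a group an SD is a rough estimate, and *Phlpp1* in Th2 rests on fewer than 100 implied fragments per library.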
